A study of Mus musculus with 6 samples.

Results

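Expression of 7 genes of Fc gamma receptor and ITAM signalling was described in 6 RNA sequencing libraries labelled heart, from melanoma-bearing mice. The members were taken by name: the signalling chains Fcer1g and Tyrobp, the IgG receptors Fcgr1, Fcgr2b, Fcgr3 and Fcgr4, and the kinase Syk. All 7 were found among the 23494 genes of the deposited table. The 6 samples came from female wild-type C57BL/6 mice that had received B16F10 melanoma cells under the skin of the flank, with 3 samples per group that are labelled as biological replicates. The vehicle group received phosphate-buffered saline. The rMANF group received recombinant mesencephalic astrocyte-derived neurotrophic factor, a protein of the endoplasmic reticulum that cells can secrete, at 2 µg/kg by daily intraperitoneal injection. Injections started once the mean tumour volume was near 60 mm3. Each group was made up of 8 randomised mice, and neither their age nor the choice of the 3 sequenced per group is stated. The table's column names for the 3 vehicle samples begin with IgG, although the labels give vehicle as their treatment.

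Fc gamma receptors bind the constant region of IgG antibodies and are carried mainly by macrophages, monocytes, neutrophils, natural killer (NK) cells and mast cells. Fcgr1, Fcgr3 and Fcgr4 are activating receptors that need the common gamma chain, the product of Fcer1g, to reach the cell surface and to signal. Fcgr2b is the inhibitory receptor, and it is also carried by B cells and some endothelial cells. Tyrobp encodes DAP12, a second signalling chain that pairs with other myeloid and NK receptors. Both chains carry an immunoreceptor tyrosine-based activation motif (ITAM), whose tyrosines are phosphorylated by Src-family kinases and then bound by Syk. In macrophages this route leads to phagocytosis, an oxidative burst and the release of cytokines.

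The motifs that set these roles were located in the coding sequences of GENCODE M21 (GRCm38, the assembly named mm10), with the first listed coding transcript of each gene. A stretch fitting the ITAM pattern of 2 spaced tyrosines was found once in Fcer1g and once in Tyrobp, and in none of the other 5 coding sequences. The coding stretches are shown because the ITAM separates the signalling chains from the receptors. The inhibitory motif was searched for in Fcgr2b only, so its absence from the activating receptors was not tested. Capitals mark the tyrosine codons, and the third line is the immunoreceptor tyrosine-based inhibition motif (ITIM) of Fcgr2b:
Fcer1g, codons 65 to 79: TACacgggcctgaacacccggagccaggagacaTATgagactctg
Tyrobp, codons 92 to 106: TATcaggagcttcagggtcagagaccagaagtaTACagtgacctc
Fcgr2b, codons 317 to 322: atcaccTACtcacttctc
Both ITAM stretches are 15 codons long, so their tyrosines are equally spaced.

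Promoter sequence from RefSeq (GRCm38.p6) was held for 6 of the 7 members. It is shown because 5 of the 7 genes lay lower without overlap in the rMANF libraries (below), and 4 of those 5 are printed, each as the 120 bases before its start site. The windows were searched on both strands for GAGGAA, an ETS-family core preceded by purines of the kind bound by the myeloid factor PU.1, and for TTCNNNGAA, the site of STAT dimers. Capitals mark the matches, which do not overlap each other:
Fcgr1 (chr3:96293970-96294089, minus strand): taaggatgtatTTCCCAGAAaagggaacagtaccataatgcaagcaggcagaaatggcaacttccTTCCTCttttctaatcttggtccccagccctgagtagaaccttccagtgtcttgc
Fcgr3 (chr1:171059395-171059514, minus strand): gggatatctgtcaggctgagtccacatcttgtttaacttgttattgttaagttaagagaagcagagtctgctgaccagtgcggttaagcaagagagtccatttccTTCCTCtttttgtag
Fcgr4 (chr1:171018806-171018925, plus strand): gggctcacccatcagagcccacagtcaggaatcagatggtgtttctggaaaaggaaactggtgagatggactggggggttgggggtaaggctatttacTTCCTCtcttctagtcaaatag
Fcer1g (chr1:171234350-171234469, minus strand): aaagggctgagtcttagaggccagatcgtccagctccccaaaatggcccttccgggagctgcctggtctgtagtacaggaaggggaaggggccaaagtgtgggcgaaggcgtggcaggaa
Fcgr1, Fcgr3 and Fcgr4 each held GAGGAA on the strand opposite to the gene, with the match beginning 55, 15 and 22 bases before the start site. For Fcgr3 the second of 2 listed start sites is shown, and the match lies 6 bases before the other. No match to GAGGAA lay in the windows of Fcer1g or Fcgr2b, and for Syk it lay before 1 of 2 start sites. Over all 32851 RefSeq promoter windows of this length, 11.6% held GAGGAA and 3.15% held TTCNNNGAA. Among the members TTCNNNGAA was found in Fcgr1 only, beginning 109 bases before its start site. These matches describe letters in a window and are not evidence of binding.

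The values are in TPM, the share of a library's transcripts that each gene holds after correction for length, so the number of reads behind each value is unknown. Some libraries stood apart before any group comparison. Markers of heart muscle cells were close to absent: 11 of 12 had rows, and they summed to 8.26 to 68.7 TPM per library, with the atrial peptide gene Nppa at 0.541 TPM or less and phospholamban (Pln) at 0.0432 TPM or less. The samples are therefore called libraries labelled heart. Skeletal muscle markers summed to 1345 TPM in vehicle replicate 2, 30.4 to 124 TPM in the remaining vehicle libraries, and 7.16 to 21.7 TPM in the rMANF libraries. Vehicle replicate 1 held the most immunoglobulin and neutrophil RNA, and rMANF replicate 3 the least RNA of macrophage markers.

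Transcripts of 5 of the 7 members, Fcer1g and the 4 Fc gamma receptors, were lower in every library labelled rMANF than in every library labelled vehicle, while those of Tyrobp and Syk overlapped between the groups. The differences ran from 1.83-fold lower for Fcer1g to 1.16-fold lower for Syk on the log2(TPM + 1) scale. Among all 12865 tested genes, those averaging 1 TPM or more, 9.02% lay lower without overlap and 18.9% higher without overlap, and 42.7% had a log2 difference below 0. In limma, a linear model fitted to all tested genes, 0 of the 7 members and 0% of tested genes passed a Benjamini-Hochberg adjusted p of 0.05. At an adjusted p of 0.10, 2 members passed, Fcer1g and Fcgr3, both lower, where 2.73% of tested genes passed in either direction and 0.793% passed lower. An unadjusted p under 0.05 was reached by 5 members, all lower, and by 6.63% of tested genes in that direction. All 7 members passed the filter on low values, with means over the 6 libraries of 7.15 TPM or more.

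The gamma chain Fcer1g (chromosome 1, 171229572 to 171234365, GRCm38) was the most abundant member in all 3 vehicle libraries. It measured 654, 559 and 516 TPM in vehicle replicates 1, 2 and 3 and 347, 333 and 263 TPM in rMANF replicates 1, 2 and 3. The highest rMANF library lay 169 TPM below the lowest vehicle library, the widest such gap among the 7 members in TPM. The log2 difference was −0.88 ± 0.13 (SE, n = 3 each; 95% interval −1.18 to −0.57; limma, adjusted p = 0.0893), and the exact two-sided permutation p was 0.1, the smallest that 3 against 3 allows. By unadjusted p it was the 19th of the 12865 tested genes. The adjusted p of 0.0893 was the lowest of any gene and was tied over 187 genes, Fcgr3 among them. The 18 alternative analyses gave −0.95 to −0.75, with adjusted p from 0.0260 to 0.806.

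The second ITAM chain, Tyrobp (chromosome 7, 30413760 to 30417585), showed overlapping groups. It measured 334, 443 and 417 TPM in the vehicle libraries against 341, 354 and 222 TPM in the rMANF libraries. Vehicle replicate 1 lay below 2 of the 3 rMANF libraries, and rMANF replicate 3 lay below all others. The log2 difference was −0.40 ± 0.19 (SE, n = 3 each; 95% interval −0.84 to 0.04; limma, adjusted p = 0.281), and it was −0.19 without rMANF replicate 3. Fcer1g exceeded Tyrobp by 1.96, 1.26 and 1.24 times in the vehicle libraries and by 1.02, 0.941 and 1.19 times in the rMANF libraries. These ratios did not overlap between groups, by a narrow margin, and they do not depend on how the libraries were scaled.

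**Figure D1:**
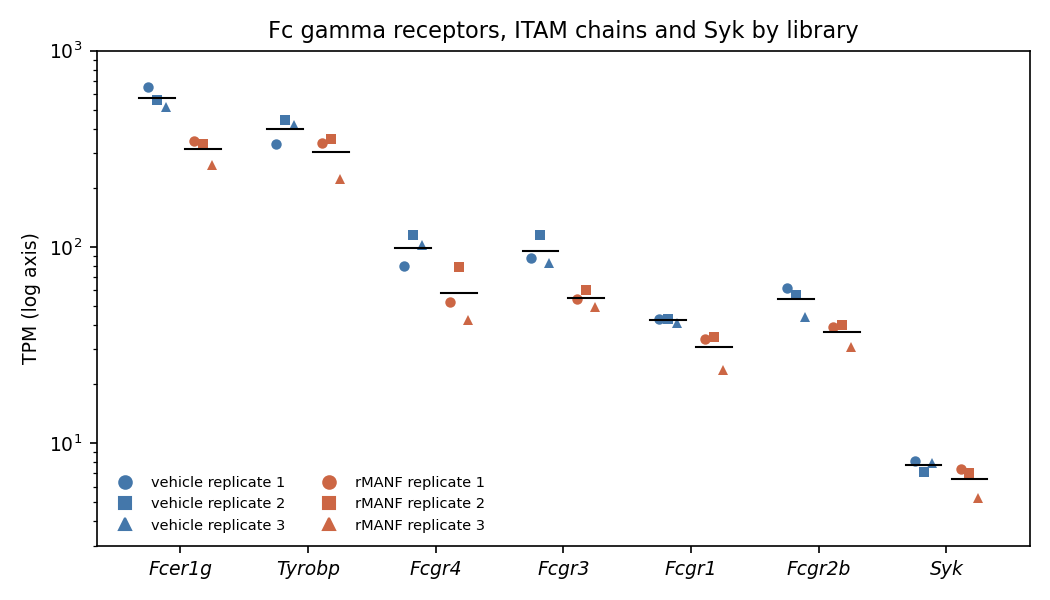
TPM on a log axis for the 7 members in each library, with circles, squares and triangles for replicates 1, 2 and 3 and a bar at each group mean. The rMANF points lie below all vehicle points for Fcer1g, Fcgr4, Fcgr3, Fcgr1 and Fcgr2b, overlap for Tyrobp and Syk, and rMANF replicate 3 is the lowest library for all 7 genes.

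Among the activating receptors, Fcgr3, the low-affinity receptor also called CD16, had the smallest p. Fcgr3 (chromosome 1, 171051174 to 171064935) measured 87.5, 115 and 82.5 TPM in the vehicle libraries against 54.4, 60.5 and 49.6 TPM in the rMANF libraries. All rMANF values lay at least 22.0 TPM below the vehicle values. Its log2 difference was −0.77 ± 0.14 (SE, n = 3 each; 95% interval −1.09 to −0.45; limma, adjusted p = 0.0893; exact permutation p = 0.1). With the level of skeletal muscle markers as a covariate, an alternative added after the data had been seen, it was −0.49 (adjusted p = 0.806, the highest of its 18 alternatives, where the lowest was 0.0288).

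Fcgr4, the receptor that binds the mouse IgG2 subclasses, had the widest spread. Fcgr4 (chromosome 1, 171018920 to 171029761) measured 80.1, 115 and 102 TPM in the vehicle libraries against 52.5, 78.7 and 42.5 TPM in the rMANF libraries. The groups were separated by 1.38 TPM only, between vehicle replicate 1 and rMANF replicate 2. The log2 difference was −0.79 ± 0.22 (SE, n = 3 each; 95% interval −1.31 to −0.28; limma, adjusted p = 0.128). Fcgr4 and Fcgr3 were expressed at similar levels, with a ratio of 0.915 to 1.23 over the vehicle libraries and 0.858 to 1.30 over the rMANF libraries.

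Fcgr1, the high-affinity receptor CD64, was the most even member among the vehicle libraries. Fcgr1 (chromosome 3, 96282909 to 96293969) measured 42.7, 42.9 and 41.1 TPM in the vehicle libraries against 33.9, 34.9 and 23.5 TPM in the rMANF libraries. All rMANF values lay at least 6.20 TPM below the vehicle values, and rMANF replicate 3 set most of the spread. The log2 difference was −0.47 ± 0.15 (SE, n = 3 each; 95% interval −0.81 to −0.12; limma, adjusted p = 0.150), and it was −0.29 without rMANF replicate 3.

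The inhibitory receptor Fcgr2b lay lower as well. Fcgr2b (chromosome 1, 170958617 to 170976547) measured 61.8, 56.9 and 44.0 TPM in the vehicle libraries against 39.2, 40.2 and 31.04 TPM in the rMANF libraries. The gap between the groups was 3.76 TPM, set by vehicle replicate 3. The log2 difference was −0.54 ± 0.15 (SE, n = 3 each; 95% interval −0.89 to −0.19; limma, adjusted p = 0.128), and with library weights it was −0.34. An annotated gene on the opposite strand, Gm38204, overlaps Fcgr2b, and the library kit named in the labels does not mark strand.

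Fcgr2b and Fcgr3 encode closely related extracellular domains. Of the 1627 different 31-base stretches in the coding transcripts of Fcgr3, 14.3% also occurred in those of Fcgr2b, and 6.42% of the 3632 of Fcgr2b occurred in Fcgr3. No such stretch was shared with Fcgr1 or Fcgr4. The division of reads between Fcgr2b and Fcgr3 is therefore uncertain, whereas their sum depends on it far less. That sum was 149, 172 and 126 TPM in the vehicle libraries against 93.5, 101 and 80.6 TPM in the rMANF libraries, again without overlap.

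The balance of activating over inhibitory receptors did not separate the groups. Fcgr1, Fcgr3 and Fcgr4 together exceeded Fcgr2b by 3.401, 4.79 and 5.13 times with vehicle and by 3.60, 4.33 and 3.72 times with rMANF. The mean log2 ratio was 2.13 ± 0.32 in vehicle libraries against 1.95 ± 0.14 in rMANF libraries (SD, n = 3 each), a difference within the spread of the vehicle libraries. Summed, the 4 receptors measured 272, 329 and 269 TPM in the vehicle libraries against 180, 214 and 147 TPM in the rMANF libraries. The sum of 4 receptors was thus 0.621 times the vehicle mean, with inhibitory and activating receptors both lower.

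Syk, the kinase that binds phosphorylated ITAMs, was the least abundant member. Syk (chromosome 13, 52583173 to 52648792) measured 8.10, 7.15 and 7.95 TPM in the vehicle libraries against 7.38, 7.05 and 5.25 TPM in the rMANF libraries. rMANF replicate 1 lay above vehicle replicate 2, so the groups overlapped. The log2 difference was −0.22 ± 0.14 (SE, n = 3 each; 95% interval −0.55 to 0.11; limma, adjusted p = 0.428), and it was −0.09 without rMANF replicate 3. Per transcript of Syk there were 80.7, 78.1 and 64.9 of Fcer1g in the vehicle libraries and 47.0, 47.3 and 50.1 in the rMANF libraries, with no overlap.

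**Figure D2:**
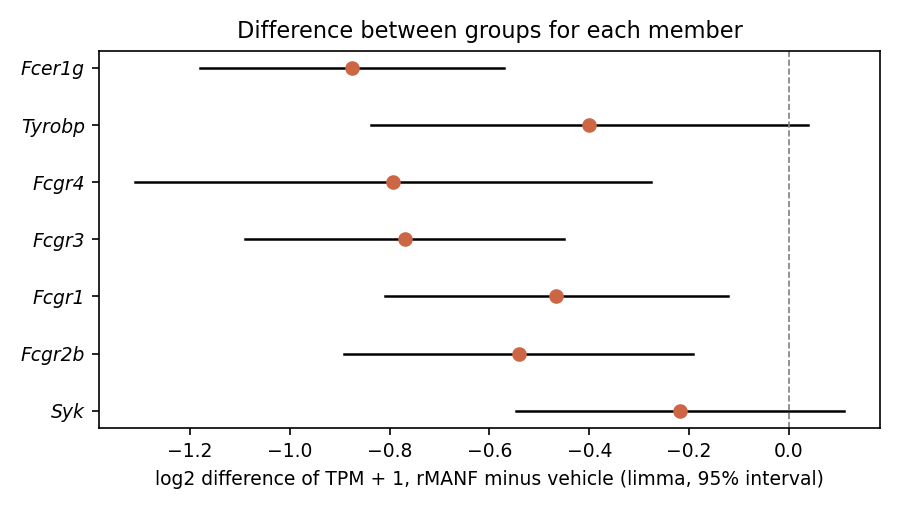
Log2 difference of TPM + 1 between groups, rMANF minus vehicle, for each member, with limma's 95% interval as a line and 0 dashed. All 7 points lie below 0, and the intervals of Tyrobp (−0.84 to 0.04) and Syk (−0.55 to 0.11) reach past it.

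In order of mean TPM over the vehicle libraries the members ran Fcer1g, Tyrobp, Fcgr4, Fcgr3, Fcgr2b, Fcgr1 and Syk. Fcgr4 and Fcgr3 overlapped in both groups, as did Fcgr2b with Fcgr1 in the rMANF libraries. Fcer1g and Tyrobp overlapped in the rMANF libraries (263 to 347 and 222 to 354 TPM) and not in the vehicle libraries. Fcer1g stood 2.05 to 3.11 times above the summed activating receptors in the vehicle libraries and 1.91 to 2.46 times in the rMANF libraries, with overlap.

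Macrophage markers moved with the members. All 16 markers, which contain none of the 7 members, lay lower with rMANF, 7 without overlap, beside 9.02% of all tested genes. Their median log2 difference was −0.47 beside 0.04 over all tested genes. They summed to 2730 to 3288 TPM in the vehicle libraries and 1711 to 2360 TPM in the rMANF libraries, and none of their defining genes was at 0. The lysozyme gene Lyz2 measured 949, 993 and 973 TPM in the vehicle libraries against 730, 523 and 433 TPM in the rMANF libraries, and Aif1, which encodes the actin-binding protein IBA1, 139, 176 and 138 TPM and 90.1, 89.7 and 70.6 TPM. In bulk tissue fewer cells of a type and less RNA per cell cannot be told apart, and this holds for every member.

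Set against these markers, Fcer1g still lay lower in the rMANF libraries, 5 members overlapped, and Syk lay higher. The member's log2(TPM + 1) minus the mean of the 16 markers was taken in each library. For Fcer1g this was 3.51, 3.24 and 3.12 log2 units with vehicle and 2.94, 2.92 and 2.92 with rMANF, still without overlap. The Fcer1g difference left was −0.36, and it was −0.26 without vehicle replicate 1. For Fcgr3 and Fcgr4 the differences left were −0.26 and −0.28, with overlapping groups. Leaving out single libraries moved them by over 1.5 times, for Fcgr3 to −0.12 without vehicle replicate 2, and for Fcgr4 to −0.17 without vehicle replicate 2 or rMANF replicate 1 and −0.47 without rMANF replicate 2. For Tyrobp, Fcgr1 and Fcgr2b they were 0.11, 0.05 and −0.03, again with overlap, and Fcgr1 and Fcgr2b took either sign when single libraries were left out. The Tyrobp value ran from 0.0039 without vehicle replicate 1 to 0.20 without rMANF replicate 3. Syk stood at −2.66, −2.86 and −2.73 with vehicle and −2.44, −2.46 and −2.48 with rMANF, so relative to the markers it lay higher in all 3 rMANF libraries.

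**Figure D3:**
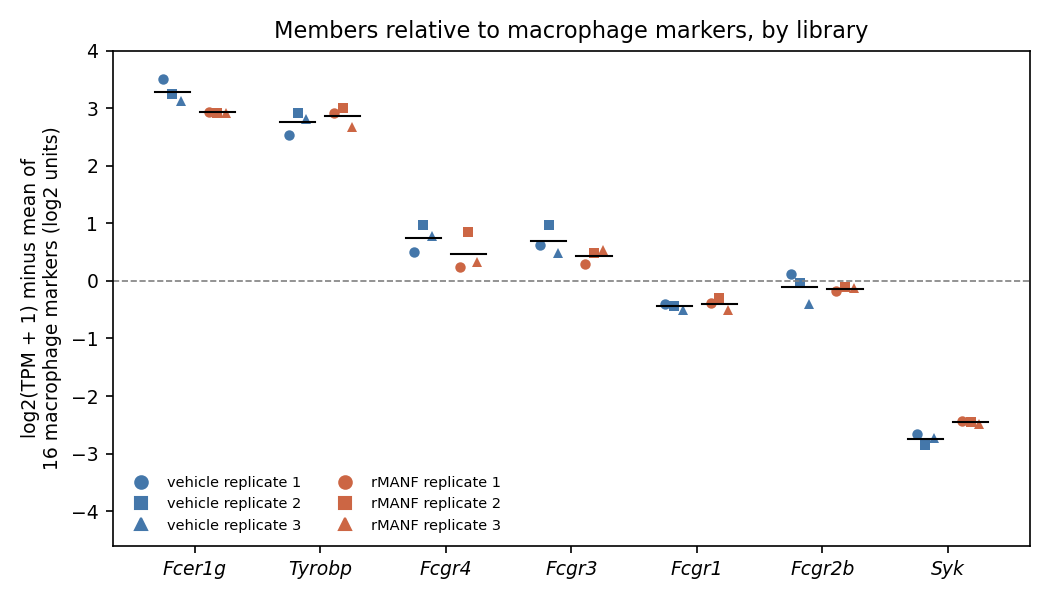
Log2(TPM + 1) of each member minus the mean of 16 macrophage markers in the same library, with circles, squares and triangles for replicates 1, 2 and 3 and a bar at each group mean. Fcer1g lies lower in the rMANF libraries without overlap, Syk lies higher without overlap, and the other 5 members overlap.

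Markers of other immune cells, several of which carry Fc receptors, were present at lower summed levels than those of macrophages. NK cell markers summed to 36.0 to 70.1 TPM with vehicle and 15.9 to 32.8 TPM with rMANF, with all 6 tested members lower, while the NK receptor Ncr1 reached at most 0.871 TPM. Neutrophil markers summed to 24.5 to 213 and 18.6 to 37.7 TPM, with the highest sum in vehicle replicate 1, and Ly6g, which defines mouse neutrophils, reached at most 0.730 TPM. Mast cell and basophil markers summed to 51.1 to 65.6 and 41.0 to 50.3 TPM, with 6 of 7 tested members lower. B cell markers summed to 4.95 to 8.25 and 5.13 to 7.54 TPM. T cell markers summed to 19.98 to 51.5 and 10.9 to 19.6 TPM, and dendritic cell markers to 21.3 to 28.8 and 16.5 to 20.5 TPM. Platelet markers summed to 108 to 155 and 60.1 to 102 TPM, nearly all of it Pf4, a gene that macrophages can also express. The part of these cells in the members' differences was not tested.

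The receptors that use Fcer1g or Tyrobp as their signalling chain lay lower in most cases. Of 30 listed, 29 had rows and 20 were tested, with 18 lower. Of these 4 did not overlap, beside 9.02% of all tested genes. The list's median log2 difference was −0.44 beside 0.04 over all tested genes. Limma passed 0 of the 20 at an adjusted p of 0.05 and 1 at 0.10, beside 2.73% of all tested genes at 0.10. The 1 gene was Clec4n, which encodes dectin-2 and signals through the gamma chain. Clec4n measured 47.4, 48.7 and 45.0 TPM in the vehicle libraries against 29.7, 27.9 and 27.3 TPM in the rMANF libraries. Cd200r4, a DAP12-coupled receptor, measured 7.37, 9.20 and 6.75 TPM and 4.34, 5.52 and 2.61 TPM, without overlap. Cd300ld, a receptor that pairs with the gamma chain, measured 14.3, 11.8 and 14.4 TPM and 10.6, 9.88 and 8.17 TPM. Trem2, a lipid-sensing receptor coupled to DAP12, overlapped, at 37.3, 69.3 and 55.3 TPM and 43.7, 31.3 and 33.8 TPM. The list's median was −0.28 without rMANF replicate 3.

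Receptors listed as inhibitory, with close relatives among them, mostly lay lower as well. The ITIM was searched for in Fcgr2b only, so whether each of these genes carries it was not tested. Of 19 with rows 17 were tested and 15 lay lower. Of these 8 did not overlap, beside 9.02% of all tested genes, and the list's median log2 difference was −0.39. At an adjusted p of 0.10 limma passed Lilrb4a alone, beside 2.73% of all tested genes. Lilrb4a measured 44.5, 38.5 and 34.7 TPM in the vehicle libraries against 25.9, 27.0 and 19.6 TPM in the rMANF libraries. Its close relative Lilr4b measured 116, 91.4 and 75.0 TPM and 58.6, 59.8 and 37.8 TPM, and reads shared between these near-identical genes may be divided between them. Cd72, a B cell and macrophage receptor and one of the most abundant of the list, lay lower without overlap, at 68.1, 75.7 and 70.0 TPM and 63.0, 58.8 and 46.1 TPM. Without rMANF replicate 3 the list's median was −0.24.

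The kinases and adaptors below the ITAMs held genes that lay lower and genes that lay higher. All 31 were tested, 21 lay lower and 10 higher. Of these 8 and 3 did not overlap, beside 9.02% and 18.9% of all tested genes, with a median log2 difference of −0.16. The adaptor Lcp2 (SLP-76), found in blood cells, measured 14.4, 15.3 and 12.2 TPM in the vehicle libraries against 8.88, 11.2 and 6.66 TPM in the rMANF libraries. The kinase Btk measured 5.63, 5.18 and 5.03 TPM and 3.84, 3.73 and 2.80 TPM, again without overlap. Src, which most cell types express, lay higher at 41.8, 40.4 and 48.6 TPM and 57.1, 60.3 and 61.5 TPM. Src was the 1 gene of the list past an adjusted p of 0.10 in limma, beside 2.73% of all tested genes. The list's median was −0.07 without rMANF replicate 3 and −0.25 without rMANF replicate 2.

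Negative regulators of ITAM signalling lay in both directions. Of 13 tested, 7 lay lower and 6 higher. Of these 3 and 3 did not overlap, beside 9.02% lower and 18.9% higher of all tested genes, so only the higher ones were at a share near that of all genes. The list's median log2 difference was −0.02 and took either sign over the alternatives. Dok1, an adaptor that restrains Ras signalling, lay higher at 24.0, 21.5 and 22.2 TPM in the vehicle libraries against 30.8, 33.9 and 30.9 TPM in the rMANF libraries. Dok1 was the 1 gene past an adjusted p of 0.10 in limma, beside 2.73% of all tested genes. Its relative Dok2, which is largely found in blood cells, lay lower at 10.4, 15.2 and 11.5 TPM and 9.40, 8.09 and 7.47 TPM. The phosphatase gene Ptpn11 (SHP-2), found in most cells, lay higher at 29.5, 30.97 and 35.9 TPM and 38.7, 44.4 and 38.3 TPM.

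The signalling chains and kinase of lymphocytes, a comparison set outside the Fc gamma receptors, lay lower for 6 of 8 genes and higher for 2. These genes were not searched for ITAMs, and not all of them need carry one. In each direction 1 gene did not overlap, beside 9.02% lower and 18.9% higher of all tested genes. The higher one was Cd247, which encodes the zeta chain of the T cell receptor complex and of NK receptors. Cd247 had the smallest p of the list. It measured 3.60, 4.31 and 3.70 TPM in the vehicle libraries against 5.11, 6.08 and 5.54 TPM in the rMANF libraries. The list's median log2 difference was −0.51. It was −0.18 with vehicle replicate 2 left out, and that library also held the most RNA of T cell markers. None passed an adjusted p of 0.10 in limma.

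Effectors of phagocytosis and the oxidase lay lower for 18 of 22 tested genes, 8 without overlap, beside 9.02% of all tested genes. Their median log2 difference was −0.31. The cytosolic oxidase subunits were the most even. Ncf1 (p47phox) measured 15.3, 16.3 and 15.3 TPM in the vehicle libraries against 10.6, 10.1 and 8.26 TPM in the rMANF libraries, and Ncf4 (p40phox) 15.4, 15.7 and 15.3 TPM and 11.5, 10.5 and 10.0 TPM. Both passed an adjusted p of 0.10 in limma, as did Arpc3, of the actin-branching Arp2/3 complex, at 316, 377 and 348 TPM and 252, 269 and 260 TPM. Wasf2, an activator of that complex, passed in the other direction at 45.7, 40.3 and 50.8 TPM and 61.0, 66.4 and 60.8 TPM. In all 4 genes of the list passed 0.10, beside 2.73% of all tested genes, and no gene of the list passed 0.05.

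**Figure D4:**
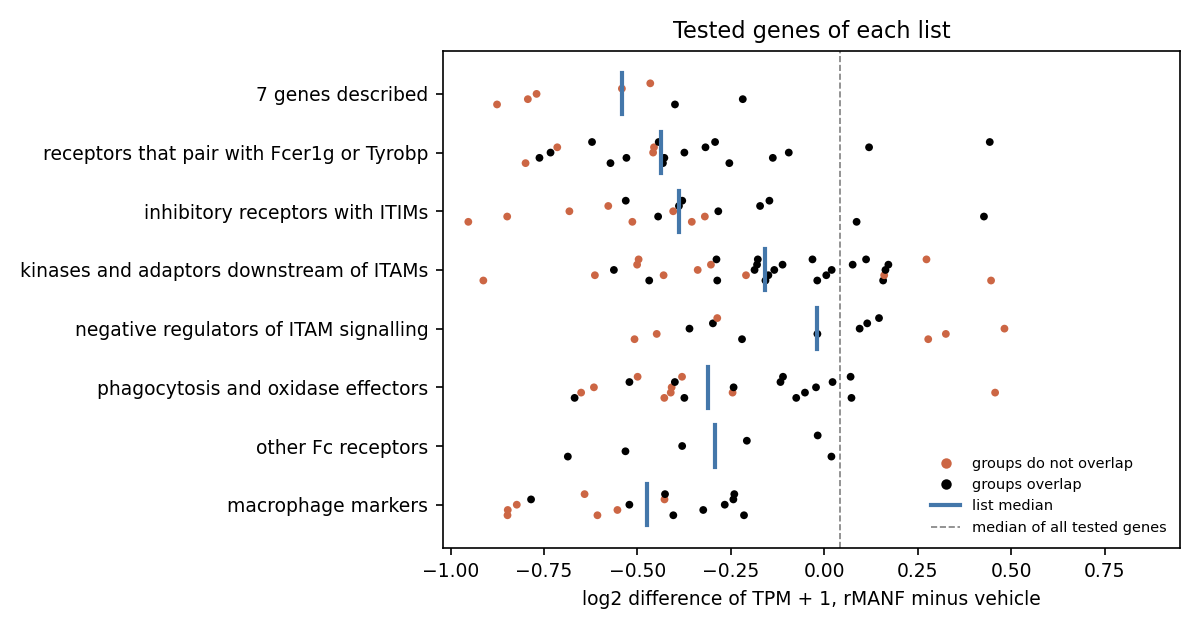
Each point is 1 tested gene at its log2 difference of TPM + 1, rMANF minus vehicle, grouped by list, in orange where the 2 groups do not overlap and in black where they do. Blue bars mark list medians, from −0.54 for the 7 genes described to −0.02 for negative regulators, and the dashed line marks the median of all tested genes, 0.04.

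Other Fc receptors overlapped between groups. Of 12 with rows 6 were tested, 5 lower and 1 higher, with a median log2 difference of −0.29. Of these 0 lay apart without overlap, beside 9.02% lower and 18.9% higher of all tested genes. These 6 genes are too few to tell 0 from those shares. The neonatal receptor gene Fcgrt, whose product recycles IgG inside endothelial cells and macrophages, measured 67.5, 56.0 and 74.6 TPM in the vehicle libraries against 59.3, 67.1 and 68.3 TPM in the rMANF libraries (log2 difference −0.02 ± 0.12, SE; limma, adjusted p = 0.952). The cytosolic antibody receptor Trim21 measured 12.5, 12.6 and 11.1 TPM and 11.2, 10.8 and 9.01 TPM. The IgE receptor alpha chain Fcer1a, which also uses the gamma chain, stood at 0.340 to 2.34 TPM. Fcrls, a macrophage gene of the Fc receptor-like family, measured 8.65, 9.07 and 17.6 TPM and 9.63, 4.36 and 6.61 TPM.

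Since column names of the vehicle samples begin with IgG, transcripts of the receptors' ligand were examined. RNA sequencing reads transcripts only, so it holds no measure of antibody protein, injected or made by the mouse. Immunoglobulin constant region and J chain genes summed to 230, 80.8 and 33.3 TPM in the vehicle libraries against 21.0, 22.2 and 40.6 TPM in the rMANF libraries. The kappa light chain Igkc, the most abundant of these genes on average, measured 170, 55.1 and 17.6 TPM and 10.1, 5.79 and 23.7 TPM, so rMANF replicate 3 lay above vehicle replicate 3. The IgG heavy chains themselves were low: Ighg2c reached at most 4.04 TPM, Ighg2b at most 1.44 TPM, Ighg1 at most 1.00 TPM and Ighg3 at most 0.969 TPM. Vehicle replicate 1, with the most immunoglobulin RNA, was the highest library for Fcer1g, Fcgr2b and Syk, and vehicle replicate 2 was the highest for Tyrobp, Fcgr1, Fcgr3 and Fcgr4. The part of immunoglobulin expression in the members' differences was not tested.

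Of 8 transcription factors of myeloid cells, 5 lay lower, 2 of them without overlap, beside 9.02% of all tested genes. Their median log2 difference was −0.10. Spi1, which encodes PU.1, measured 30.9, 33.1 and 36.1 TPM in the vehicle libraries against 31.4, 31.7 and 24.9 TPM in the rMANF libraries, with overlap (log2 difference −0.19 ± 0.12, SE; limma, adjusted p = 0.420). Cebpb was among the most abundant of the 8 factors and overlapped, at 322, 354 and 343 TPM and 391, 351 and 327 TPM.

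On the genome, 4 of the 7 members lie together on chromosome 1, in a span of 275.7 kb. Fcgr2b, Fcgr4, Fcgr3 and Fcer1g follow each other in this order, 42.4, 21.4 and 164.6 kb apart. Within 200 kb of these 4 genes, 25 other genes were tested, 8 lower and 17 higher with rMANF, and their median log2 difference was 0.03. Against −0.54 to −0.88 for the 4 members, the other genes ran from −0.46 to 0.35, with 2 lower without overlap, a share near the 9.02% of all tested genes, and 0 higher without overlap, beside 18.9%. Between Fcgr3 and Fcer1g, Sdhc differed by 0.02 ± 0.10 and Nr1i3 by −0.25 ± 0.13 (log2 difference ± SE). The lowest of the other genes, Klhdc9, stood at 4.42 and 2.89 TPM.

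**Figure D5:**
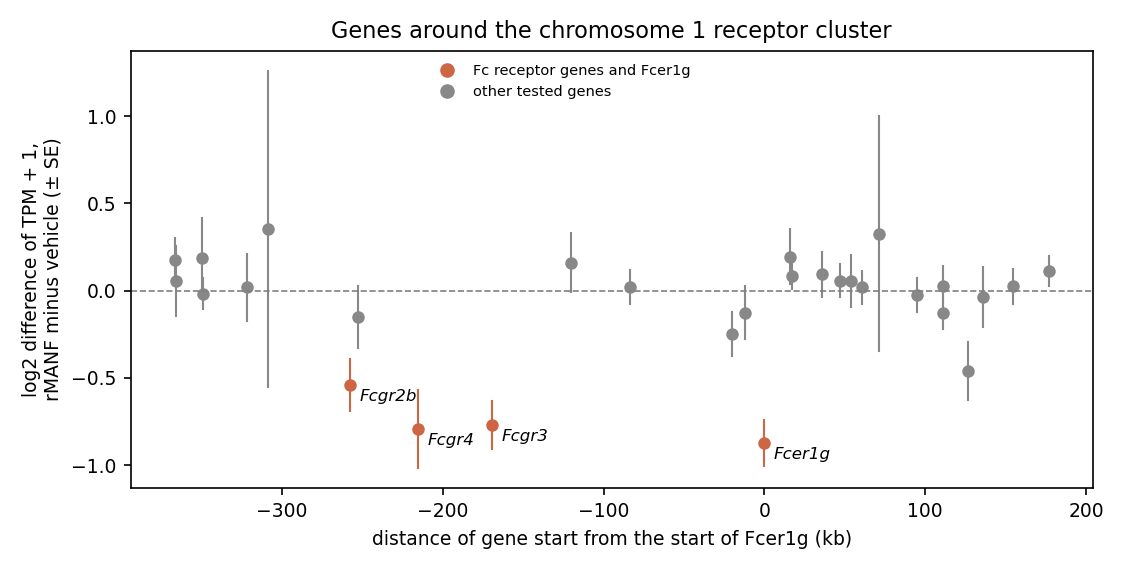
Log2 difference of TPM + 1 with its SE for tested genes around the chromosome 1 cluster, by distance of each gene's start from that of Fcer1g in kb. The 4 members, in orange, lie at −0.54 to −0.88, and the 25 other genes, in grey, run from −0.46 to 0.35.

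The genes whose profile over the 6 libraries was most like each member's were found by the root mean square (RMS) difference between centred log2(TPM + 1) values, among 9768 genes averaging 5 TPM or more. For Fcer1g these were Lilrb4a, Dram1 and Xist (RMS difference 0.104, 0.104 and 0.106), and for Tyrobp Ly9, Rab7b and Mpeg1 (0.0511 to 0.0603). For Fcgr1 they were Rnf130, Plek and Ikzf1 (0.0437 to 0.0646), and for Fcgr2b Ifi206, Serpinb9 and Id2 (0.0628 to 0.0712). Fcgr3 lay nearest to Tmsb4x, Ifi47 and H2-DMa (0.0588 to 0.0789), Fcgr4 to Pla2g16, Ctsc and Postn (0.128 to 0.146), and Syk to Tnfaip8, Tia1 and Pik3cd (0.0394 to 0.0575). None of the members was among another member's nearest 3. The nearest member to Fcer1g was Fcgr2b at rank 42, and to Syk it was Fcgr1 at rank 939. With 6 libraries in 2 groups such likeness takes in the group difference.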

How the data were processed

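The authors deposited log2 TPM for 23494 genes in a single table, with 0 columns of other samples. Salmon 0.14.1, HTSeq 0.11.0, fastp, cutadapt and the build mm10 are named, without roles or order, per the submitters' processing notes. Powers of 2 of the deposited log2 values summed to within 19.5 TPM of the full TPM scale per library, so no offset was present, and −9 was read as 0 TPM. TPM keeps no depth, so no counting interval was computed, and the precision stated is the spread between samples.

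The 12865 genes averaging 1 TPM or more were tested on log2(TPM + 1), a scale that compresses differences of low genes, with limma 3.58.1 in R 4.3.3 (no covariate, variance trend, two-sided, Benjamini-Hochberg adjustment over all tested genes, threshold 0.05). Exact permutation tests used the 20 assignments of 3 against 3 libraries. The procedure was tested on simulated data. Coordinates came from GENCODE M21, and promoters from RefSeq. The labels give no source for pairing replicate numbers, and they call the replicates biological without stating separate mice, so p-values measure the spread between these samples.

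The members and gene lists were chosen with earlier results of these data known, so counts over them are descriptions. Genes named beside the members were, per list, up to 4 of smallest p and 2 of highest mean TPM, genes within 200 kb of the chromosome 1 members, and the 3 most alike profiles, with marker and immunoglobulin genes near 0 added after their values were seen. Alternatives were a pseudocount of 0.1 or 5 TPM, a filter at 5 TPM or none, 3 other scalings, variances without trend or robust, weighted libraries, a block for the replicate number, leaving out each library in turn, and, added after the data were seen, the skeletal muscle level as a covariate. Some genes of the lists and of the chromosome 1 neighbourhood are counted but not reported by name here.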

Additional observations from a re-analysis of the deposited data

How the results depend on the processing

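All 7 members kept a negative log2 difference under all 18 alternatives, and no scaling moved the median of all tested genes by over 0.1. Several alternatives could not have turned a sign. The filters, the variance settings and the replicate block leave each estimate unchanged. Leaving out a library cannot turn the sign of a member whose groups do not overlap. With library weights 3 members passed an adjusted p of 0.05 instead of 0, Fcer1g (−0.76), Fcgr3 (−0.66) and Fcgr4 (−0.87), where 737 genes passed in all. The other 17 alternatives gave 0 members. The count of members at an adjusted p of 0.10 was 2 as reported, 4 with library weights or a filter at 5 TPM, and 0 without the filter, with the muscle covariate, with no variance trend, and after rescaling that left out mitochondrially encoded and haemoglobin genes. Leaving out single libraries gave 0 to 3: 0 without vehicle replicate 2 or without any of the 3 rMANF libraries in turn, and 3 without vehicle replicate 1 or 3. The share of all tested genes past 0.10 moved with these counts, from 2.73% as reported to 14.5% with library weights and 6.56% with the filter at 5 TPM. It was 7.55% without vehicle replicate 1 and 4.18% without vehicle replicate 3. In the settings with 0 members, at most 3 genes of the whole table passed. The cause was not tested. The count lying lower without overlap was 5 or 6 in the 9 alternatives where it was taken. Leaving out a library cannot create an overlap, so in those settings the count could not fall below 5.

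With the replicate number as a block, 2 members passed 0.10 and 0 passed 0.05, so neither count of members moved. Over all tested genes the counts did move. The share past 0.10 was 0.878% with the block and 2.73% as reported, and 3 genes passed 0.05 with the block, beside 0. Deviations of same-numbered libraries from their group means had correlations of −0.07, 0.03 and 0.05 across genes. With 3 libraries per group these values cannot decide whether the numbers pair the samples.

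The log2 ratio of activating over inhibitory receptors differed by −0.36 to −0.06 with single libraries left out, beside −0.18 with all. Medians turned sign for B cell markers without rMANF replicate 3 (0.09) and with no filter (0.01), for negative regulators in 3 settings (up to 0.04), for myeloid transcription factors without rMANF replicate 3 (0.00697, and −0.16 without rMANF replicate 1) and, with the muscle covariate, for lymphocyte ITAM chains (0.0186), cardiomyocyte markers (0.65) and skeletal muscle markers (0.0471). Without depth, counting error cannot be separated from the spread between samples.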
